A study of Mus musculus with 4 samples.

Results

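The genes of antigen presentation were followed in cultured mouse keratinocytes with and without the glucose transporter Glut1. The set comprised every gene whose array row carried exactly 1 gene symbol that starts with H2- (the prefix of genes in the mouse major histocompatibility complex, MHC) or that is 1 of 18 named genes of peptide processing, MHC-like proteins and MHC transactivators. It held 51 of the 22180 genes tested, of which 39 lie on chromosome 17, where the complex is. By assigned role, 33 were counted in the class I pathway, 11 in the class II pathway and 7 in neither. H2-D1 and Cd74 occur only in rows shared with another gene, so neither has a value of its own here.

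Class I molecules show peptides from the cytosol on the surface of nearly every nucleated cell. Proteins are cut by the proteasome, whose catalytic subunits are exchanged for immunoproteasome subunits under interferon. The peptides are pumped into the endoplasmic reticulum by the transporter TAP, trimmed, and loaded with the help of tapasin onto a heavy chain bound to beta-2 microglobulin. Class II molecules present peptides from endosomes and belong mainly to professional antigen-presenting cells, such as the Langerhans cells of the epidermis; keratinocytes acquire them under interferon gamma.

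Wild-type cells came from Glut1 fl/fl mice, and Glut1-deficient cells from Glut1 fl/fl mice that also carried K14-Cre, so both genotypes share the floxed alleles and the C57BL/6J strain label. Keratin 14 drives Cre in basal keratinocytes, and other cells in the cultures would keep Glut1. Primary keratinocytes were taken from mice aged 1 week, 4 mice per genotype, reseeded after 3 days and harvested 1 day later. They grew in the serum-free keratinocyte medium KSFM with low calcium. Each array measured 2 pooled plates of a genotype, with 2 arrays per genotype, and wild-type and Glut1-deficient lysates held cells in a ratio of 1.5 to 1.0. The deposited numbers are log2 intensities after RMA, a method that brings all arrays to a common distribution, so every difference is relative to the other genes.

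Levels were read against olfactory receptor genes, which are background in skin, because no detection calls were used here. Over 1105 such genes the median level was 2.49 and the 95th percentile 3.84, and 34 of the 51 members lay above the latter. Slc2a1, which encodes Glut1, read 11.13 and 11.05 on the wild-type arrays and 11.01 and 11.01 on the Glut1-deficient arrays (limma adjusted p = 0.675). Which part of the gene this row covers is not given in the sources used here, so it does not check the labels. Of 11 keratinocyte markers tested, 9 lay above the olfactory 95th percentile, with Krt14 at 12.55 ± 0.012 and 12.18 ± 0.043 (SD, n = 2 each), while Krt1 and Krt15 lay below it. Keratinocyte markers were mostly lower on the Glut1-deficient arrays, and 0 passed. Of the 11, 6 lay below both wild-type arrays (54.5%, against 27.7% of all genes), among them Col17a1 (-0.73) and Itgb4 (-0.57). At an unadjusted p under 0.05 in limma, 5 were lower and 1, Perp (0.30), was higher. Fibroblast markers were higher on the Glut1-deficient arrays. Their mean log2 level over 10 genes was 4.86 and 4.75 on the wild-type arrays against 6.15 and 5.54, 8 of the 10 lay above both wild-type arrays (against 25.5% of all genes), and 0 passed over all genes (limma, 8 at unadjusted p under 0.05). Of 8 melanocyte markers, 4 rose. These cell types express class I genes too, and their part in the differences below was not tested. In such bulk samples, fewer cells of a type and less RNA per cell cannot be told apart.

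The regulatory stretches before a few of these genes were searched for short sequence motifs. Promoters in the RefSeq table (build GRCm38.p6) matched 37 of the 51 members. Below are the 250 bases before the start site of the light chain gene B2m and the classical chain gene H2-K1, which did not pass the test, of H2-T23 and Tapbp, which fell, and of Tap1, which did not pass. Each runs from 5′ to 3′ on the gene's own strand. Capitals mark 4 motifs searched on both strands: the interferon-stimulated response element core GAAANNGAA, the kappa B core GGGATTCC, the X2 box core TGACG and the Y box core CCAAT. The coordinates are chr2:122147437-122147686 (plus strand) for B2m, chr17:34000334-34000583 (minus strand) for H2-K1, chr17:36032702-36032951 (minus strand) for H2-T23, chr17:33919228-33919477 (plus strand) for Tapbp and chr17:34187306-34187555 (plus strand) for Tap1.
B2m: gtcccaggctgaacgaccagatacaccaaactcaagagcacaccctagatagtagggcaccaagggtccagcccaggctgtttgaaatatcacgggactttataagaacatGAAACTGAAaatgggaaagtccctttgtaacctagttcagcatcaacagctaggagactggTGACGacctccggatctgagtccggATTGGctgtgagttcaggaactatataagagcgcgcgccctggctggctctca
H2-K1: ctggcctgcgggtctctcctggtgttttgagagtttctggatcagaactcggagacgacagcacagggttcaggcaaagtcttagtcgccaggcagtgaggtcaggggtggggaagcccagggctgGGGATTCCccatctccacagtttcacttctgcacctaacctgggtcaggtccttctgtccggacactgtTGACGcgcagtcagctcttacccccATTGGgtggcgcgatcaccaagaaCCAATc
H2-T23: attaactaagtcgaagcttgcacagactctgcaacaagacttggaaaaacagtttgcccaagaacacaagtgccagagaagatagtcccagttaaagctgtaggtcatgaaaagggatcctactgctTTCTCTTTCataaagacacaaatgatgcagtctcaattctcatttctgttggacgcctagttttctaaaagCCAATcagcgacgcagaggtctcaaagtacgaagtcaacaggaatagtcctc
Tapbp: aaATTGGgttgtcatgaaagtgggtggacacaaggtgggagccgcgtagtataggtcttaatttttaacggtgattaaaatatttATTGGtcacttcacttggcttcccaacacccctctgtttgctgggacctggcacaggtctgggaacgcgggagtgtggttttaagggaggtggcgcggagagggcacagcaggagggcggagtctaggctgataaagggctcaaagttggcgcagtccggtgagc
Tap1: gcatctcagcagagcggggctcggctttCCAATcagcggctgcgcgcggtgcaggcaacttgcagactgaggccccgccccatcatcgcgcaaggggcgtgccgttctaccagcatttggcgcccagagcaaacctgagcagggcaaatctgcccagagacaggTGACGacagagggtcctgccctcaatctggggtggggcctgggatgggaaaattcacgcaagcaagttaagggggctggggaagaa

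The response element core matched 139 bases before the start of B2m and 123 bases before that of H2-T23, so it was present both in a gene that fell and in one that did not pass. H2-K1 held a kappa B core 124 bases before its start and an X2 core at 55. From a second listed start of H2-K1 these lay at 110 and 41. The Y box core was the only motif in every stretch shown. Psmb8 and Mill1, which fell and are not shown, held none of the 4 motifs. Mill2, which rose, held an X2 core only. The Y box core was in 29 of 41 member promoters, from 27 of the 37 member genes, against 37.4% of all 32851 promoters in the table. Each promoter was searched over 250 bases before and 50 after the start. The response element core was in 4 of 41 member promoters (8.56% of all promoters), from 4 genes. The kappa B core was in 2 (1.06%), from 1 gene, and the X2 core in 16 (20.8%), from 14 genes. The Tap1 window and that of Psmb9, an immunoproteasome gene read in the opposite direction, share 225 of their 250 bases. A match describes letters only and is not a shown binding site. A missing match does not show that a gene lacks such an element, because only these exact letter patterns were searched.

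The members past the test were H2-T23, Tap2, Tapbp, Psmb8 and Mill1, which fell, and Mill2, which rose. B2m and H2-K1 did not pass. Among all members 5 fell, 1 rose and 45 did not pass (limma, Benjamini-Hochberg adjusted p under 0.05 over all genes), which is 11.8% past the threshold against 2.84% of all genes tested. Falls made up 9.80% of the members against 1.05% of all genes, and rises 1 gene against 1.79%. The members had been chosen with earlier results of these data known, so these shares describe the set and do not test it. The median log2 difference over the 51 members was -0.02, beside -0.01 over all genes.

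**Figure D1:**
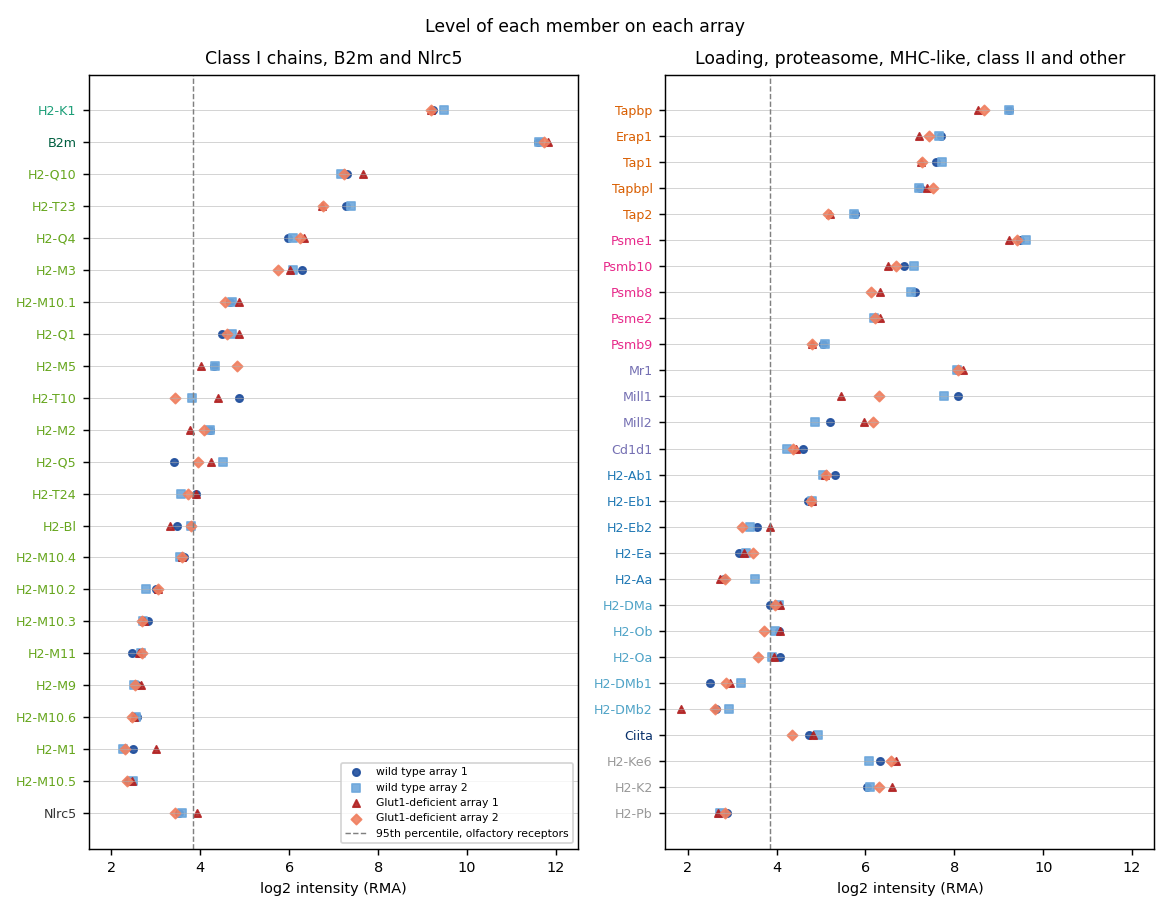
Log2 intensity (RMA) of all 51 members on each of the 4 arrays, 1 row per gene, with gene names coloured by role. Blue symbols are wild-type and red symbols Glut1-deficient arrays, and the dashed line is the olfactory 95th percentile of 3.84; B2m lies near 11.7 on all arrays, and 5 of the 11 class II pathway genes have means below the line.

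Heavy chains and the light chain are the parts of the class I molecule itself. B2m, the light chain shared by all classical and most MHC-like class I molecules, had a mean level at percentile 99.6 of all genes. It read 11.60 and 11.63 on the wild-type arrays and 11.82 and 11.74 on the Glut1-deficient arrays. Both Glut1-deficient arrays were thus slightly above both wild-type arrays, with a log2 difference of 0.17 (95% interval -0.06 to 0.39; limma adjusted p = 0.338). The light chain row was thus bright on all 4 arrays. H2-K1, a classical heavy chain that presents peptides to CD8 T cells, read 9.23 and 9.48 on the wild-type arrays and 9.19 on each Glut1-deficient array. The difference of -0.17 (95% interval -0.46 to 0.13; limma adjusted p = 0.465) was smaller than the gap of the wild-type pair, and the interval leaves out a fall larger than 0.46.

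Among 20 nonclassical (class Ib) chains, 1 fell, 0 rose and 19 did not pass, and their median log2 difference was 0.04. The share past the test was 5.0%, against 2.84% of all genes. H2-T23 encodes Qa-1, which displays leader peptides of other class I chains to inhibitory receptors of natural killer cells. It read 7.28 and 7.39 on the wild-type arrays and 6.74 and 6.77 on the Glut1-deficient arrays. The groups were separated by far more than their internal spread, and the gene fell by 0.58 on the log2 scale (SE 0.090; 1.50-fold lower; limma adjusted p = 0.0492). H2-M3, which binds formylated peptides of bacterial and mitochondrial origin, was at 6.18 ± 0.13 and 5.88 ± 0.20 (SD, n = 2 each). Its difference of -0.30 did not pass (limma adjusted p = 0.281).

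The Q-region chains had positive differences in their brighter rows, but their rows disagreed. H2-Q10, known as a secreted class I chain of liver, read 7.29 and 7.16 on the wild-type arrays and 7.65 and 7.24 on the Glut1-deficient arrays, which overlapped. H2-Q4 read 5.97 and 6.08 on the wild-type arrays and 6.34 and 6.25 on the Glut1-deficient arrays, with no overlap (limma adjusted p = 0.192). The second row of H2-Q4 had a log2 difference of -0.35, against 0.27 for the brighter one, and the second row of H2-Q10 -0.28 against 0.22. Class I genes of the complex are so alike that probes can read several of them, so neither chain has a settled direction. H2-M10.1 (mean level 4.70) and H2-Q1 (4.67) completed the 6 brightest class Ib genes, with differences of 0.02 and 0.13. Of the other 14, 10 lay at or below the olfactory 95th percentile. These dim genes spanned differences from -0.09 to 0.28, with 0 past the test (limma, 0 at unadjusted p under 0.05) at levels that olfactory receptor genes also reach. A further 6 rows are annotated only to several H2- genes. They had differences from -0.50 to 0.38 with a median of -0.14, and 0 passed when all rows were tested (limma, 1 at unadjusted p under 0.05).

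Of 10 genes that supply and load peptides, 3 fell, 0 rose and 7 did not pass, with log2 differences from -0.84 to 0.24. Both Glut1-deficient arrays lay below both wild-type arrays for 8 of the 10 (80.0%, against 27.7% of all genes) and above them for the other 2 (20.0%, against 25.5%). At an unadjusted p under 0.05, 7 of the 10 were lower in limma, against 11.2% of all genes. All 10 lay above the olfactory 95th percentile, while the shares over all genes include dim ones. In other lists the share below both wild-type arrays was 61.5% for constitutive proteasome genes, 62.5% for MHC promoter factors and 22.2% for Langerhans and dendritic cell markers. The median log2 difference of the 10 was -0.38, and that of the 22 class I chains and B2m was 0.04, with differences from -0.58 to 0.28. The difference between these groups was not tested.

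Transport into the endoplasmic reticulum depends on TAP, a heterodimer of Tap1 and Tap2. Tap2 read 5.75 on each wild-type array and 5.20 and 5.16 on the Glut1-deficient arrays. It fell by 0.58 on the log2 scale (SE 0.083; 1.49-fold lower; limma adjusted p = 0.0440). Its partner Tap1 read 7.58 and 7.73 on the wild-type arrays and 7.26 and 7.27 on the Glut1-deficient arrays. These too did not overlap, but the difference of -0.39 did not pass (95% interval -0.64 to -0.15; limma adjusted p = 0.104). Tapbp encodes tapasin, the bridge between TAP and the waiting heavy chain. It read 9.22 on each wild-type array and 8.53 and 8.66 on the Glut1-deficient arrays, and fell by 0.63 on the log2 scale (SE 0.093; 1.55-fold lower; limma adjusted p = 0.0460). A dimmer second row of Tapbp was lower as well, by a log2 difference of -0.40.

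Tapbpl encodes the tapasin-related protein that edits peptides independently of TAP, and it did not share this direction. It read 7.22 and 7.20 on the wild-type arrays and 7.37 and 7.53 on the Glut1-deficient arrays, a difference of 0.24 (limma adjusted p = 0.238). Erap1, the aminopeptidase that trims peptides in the endoplasmic reticulum, read 7.70 and 7.65 on the wild-type arrays and 7.21 and 7.42 on the Glut1-deficient arrays. Its difference of -0.36 did not pass (limma adjusted p = 0.152), although the groups did not overlap.

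Immunoproteasome subunits replace the constitutive catalytic subunits and alter which peptides are made. Psmb8 read 7.11 and 7.01 on the wild-type arrays and 6.33 and 6.12 on the Glut1-deficient arrays. It fell by 0.84 on the log2 scale (SE 0.112; 1.78-fold lower; limma adjusted p = 0.0390), the largest fall among the class I pathway members. Psmb10 read 6.88 and 7.10 on the wild-type arrays and 6.50 and 6.68 on the Glut1-deficient arrays, a difference of -0.40 (limma adjusted p = 0.154). Psmb9 read 5.05 and 5.09 on the wild-type arrays and 4.79 and 4.81 on the Glut1-deficient arrays, a difference of -0.27 (limma adjusted p = 0.163). All 3 subunits were thus lower on both Glut1-deficient arrays, and 1 passed.

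The constitutive counterparts of these subunits did not pass. Psmb5, the counterpart of Psmb8, had a log2 difference of 0.08, Psmb6, that of Psmb9, one of -0.01, and Psmb7, that of Psmb10, one of -0.06. In the list of constitutive proteasome genes 0 of 13 passed (limma, 1 at unadjusted p under 0.05), and the median was -0.09. Of the 13, 12 had negative differences and 8 lay below both wild-type arrays (61.5%, against 27.7% of all genes), and the difference from the immunoproteasome genes was not tested. The proteasome activator had 2 members. Psme1 read 9.47 and 9.61 on the wild-type arrays and 9.22 and 9.42 on the Glut1-deficient arrays, a difference of -0.22 that did not pass (limma adjusted p = 0.342). Psme2 read 6.21 and 6.19 against 6.32 and 6.21, a difference of 0.07.

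**Figure D2:**
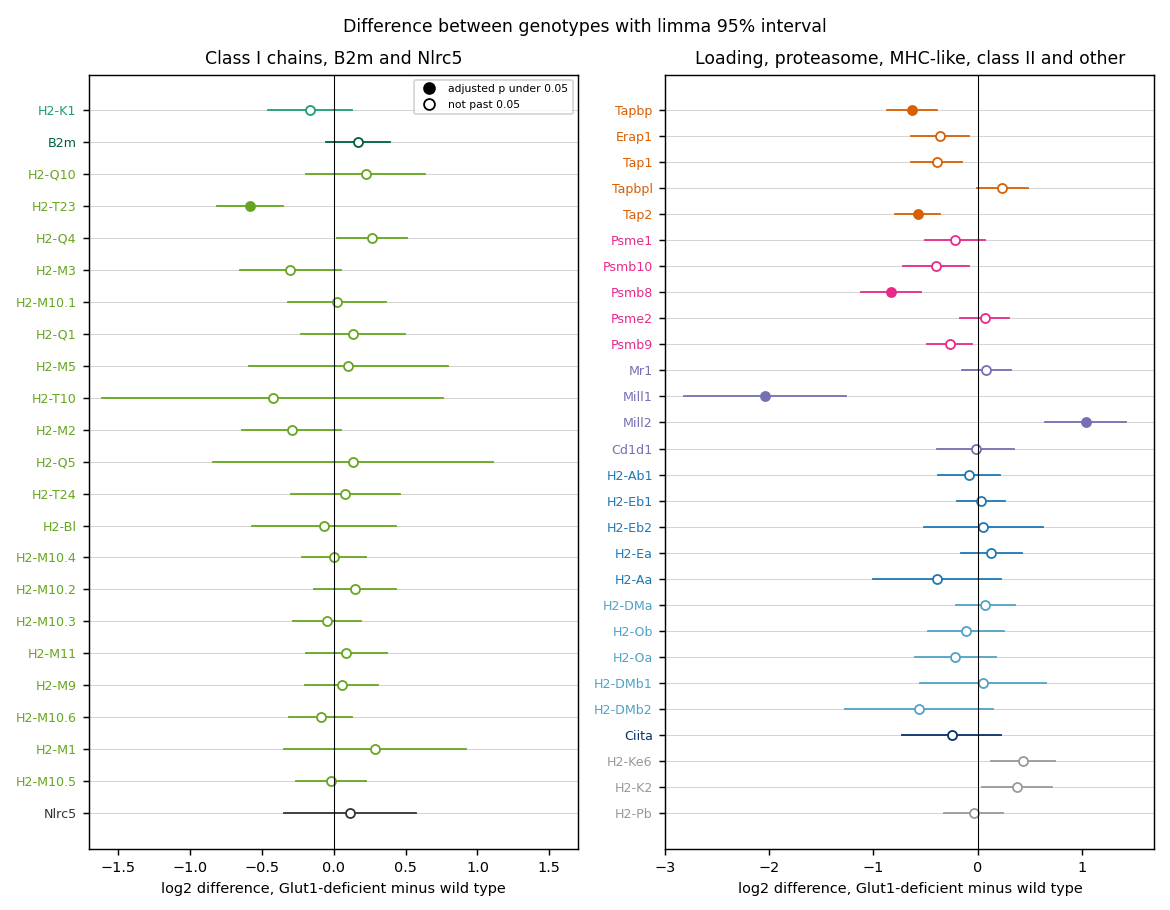
Log2 difference between the genotypes (Glut1-deficient minus wild type) for all 51 members, as points with limma 95% intervals; filled points passed at an adjusted p under 0.05. The filled points are H2-T23, Tapbp, Tap2, Psmb8 and Mill1 on the low side and Mill2 on the high side, and the intervals of B2m and H2-K1 include 0.

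Mill1 and Mill2, a pair of MHC class I-like genes that lie outside the complex on chromosome 7, changed in opposite directions. Their products bind beta-2 microglobulin but do not depend on TAP. Mill1 read 8.09 and 7.76 on the wild-type arrays and 5.45 and 6.31 on the Glut1-deficient arrays. It fell by 2.04 on the log2 scale (SE 0.302; 4.12-fold lower; limma adjusted p = 0.0456), the largest change among the members. The Glut1-deficient arrays differed from each other by more than the wild-type arrays did. The array with the lower Mill1 value was also the one with the higher fibroblast markers (mean level 6.15 against 5.54). With only 2 Glut1-deficient arrays such a match arises easily, and a link was not tested. Mill2 read 5.20 and 4.86 on the wild-type arrays and 5.96 and 6.17 on the Glut1-deficient arrays. It rose 2.05-fold (log2 difference 1.04, SE 0.153; limma adjusted p = 0.0447), and its Glut1-deficient values were the closer pair.

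Neither of the other MHC-like genes passed. Mr1 presents vitamin B metabolites to mucosal-associated invariant T cells. It read 8.05 and 8.06 on the wild-type arrays and 8.20 and 8.08 on the Glut1-deficient arrays (difference 0.08, 95% interval -0.15 to 0.32). Cd1d1 presents lipids to natural killer T cells. It was dim, at 4.41 ± 0.26 and 4.39 ± 0.050 (SD, n = 2 each), and the groups overlapped.

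**Figure D3:**
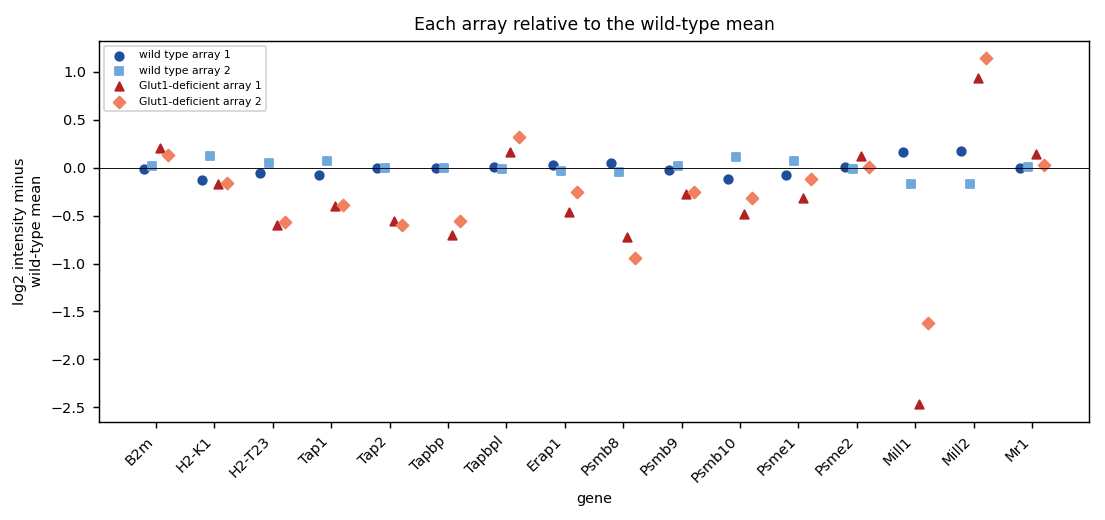
Log2 intensity of 16 members on each array minus the wild-type mean of that gene; blue symbols are wild-type and red symbols Glut1-deficient arrays. Mill1 and Mill2 lie far apart on opposite sides of 0, Tap2, Tapbp, Psmb8 and H2-T23 lie below it on both Glut1-deficient arrays, and B2m and Tapbpl lie above it.

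The 6 calls rested on all 4 arrays. Without any 1 array, with all 41345 rows tested separately, or with the replicate number as a block, 0 members passed in limma (8 to 17 members at unadjusted p under 0.05). With any 1 array left out, the log2 differences kept their signs. This was fixed in advance, because the genotypes did not overlap for any of these genes. Tap2 stayed between -0.59 and -0.56, Tapbp between -0.70 and -0.56, Psmb8 between -0.94 and -0.73, H2-T23 between -0.64 and -0.53, and Mill2 between 0.87 and 1.21. Mill1 moved most, to -1.62 without Glut1-deficient array 1 and to -2.47 without array 2.

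Of 11 class II genes, 6 lay above the olfactory 95th percentile, with mean levels up to 5.14, and 0 passed (limma, 0 at unadjusted p under 0.05). Their median log2 difference was -0.08, with values from -0.57 to 0.13, and 10 of the 11 overlapped between genotypes, as did 10386 of all 22180 genes. The class II chain genes showed no shared direction, with 2 negative and 3 positive differences. H2-Ab1, the beta chain of I-A, read 5.31 and 5.05 on the wild-type arrays and 5.09 and 5.10 on the Glut1-deficient arrays, which overlapped. H2-Eb1, the beta chain of I-E, read 4.70 and 4.80 against 4.79 and 4.76. The intervals of both beta chains (-0.38 to 0.22 and -0.20 to 0.26) leave out changes of more than 0.38 on the log2 scale. H2-Aa, the alpha chain of I-A, read 2.82 and 3.51 against 2.72 and 2.84 and was thus at background level. H2-Ea, annotated as a transcribed pseudogene, was at 3.24 ± 0.12 and 3.37 ± 0.13, and H2-Eb2 at 3.49 ± 0.12 and 3.54 ± 0.44 (SD, n = 2 each).

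The class II peptide editors lay near background. H2-DMa, a chain of the editor that releases the invariant chain fragment, was at 3.95 ± 0.14 and 4.03 ± 0.076, and its partners H2-DMb1 and H2-DMb2 had differences of 0.05 and -0.57. H2-DMb2 was the 1 class II gene whose arrays did not overlap, at a level of 2.51. H2-Oa and H2-Ob, chains of the inhibitor of that editor, had differences of -0.21 and -0.11. Neither passed. Ciita, the master transactivator of class II genes, read 4.73 and 4.93 on the wild-type arrays and 4.82 and 4.34 on the Glut1-deficient arrays, with a difference of -0.25 (95% interval -0.72 to 0.22). Nlrc5, its counterpart for class I genes, was below the olfactory 95th percentile at 3.53 and 3.60 against 3.92 and 3.43. The groups overlapped for both transactivators, and neither passed.

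Class I and class II were set side by side on the same arrays. Relative to the wild-type mean, the first Glut1-deficient array had a median of 0.00 over the 33 class I pathway genes and the second -0.08. For the 11 class II genes these medians were 0.04 and -0.18. The medians of the 2 arrays thus differed by more within class II than the pathways differed from each other. Over all pathway members the medians were -0.02 for class I and -0.08 for class II. Restricted to genes above the olfactory 95th percentile, they were -0.24 over 22 class I genes and -0.10 over 6 class II genes. Of these bright class I genes, 12 lay lower on both Glut1-deficient arrays (54.5%), and of the class II genes 0 did. The share was 27.7% of all genes, dim ones included, and no share over bright genes alone is given here. In other lists it was 61.5% for constitutive proteasome genes and 22.2% for Langerhans and dendritic cell markers. The bright class I genes also had a higher median level (6.44) than the bright class II genes (4.35). The difference between the pathways was not tested, because the members were chosen with results known.

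**Figure D4:**
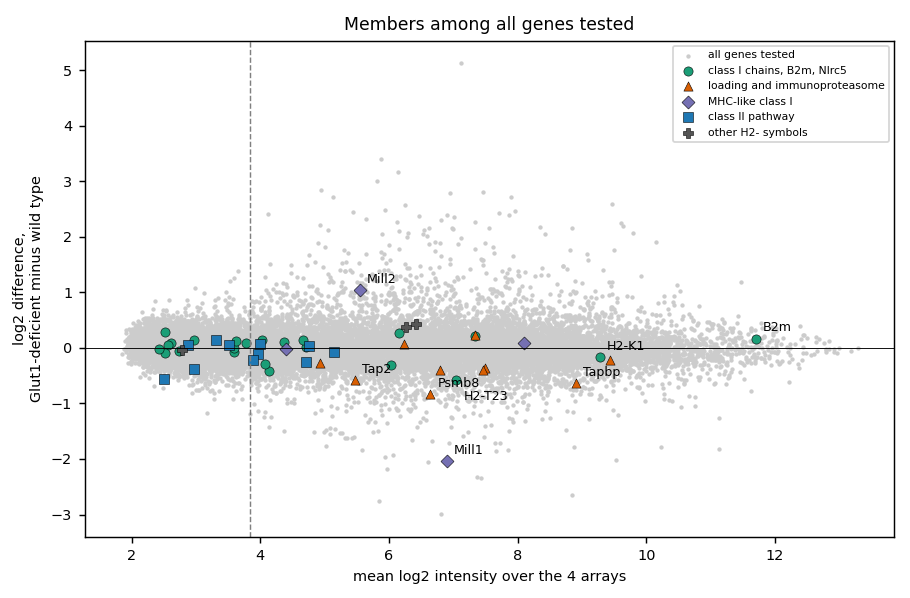
Log2 difference between the genotypes against mean log2 intensity over the 4 arrays for all 22180 genes (grey) and the 51 members (coloured by role); the dashed line is the olfactory 95th percentile. All class II genes lie at mean levels of 5.14 or less, and 8 of the 10 peptide loading and immunoproteasome genes lie below 0.

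Markers of cells that normally carry class II were read in the same way. Of 9 Langerhans and dendritic cell markers, 4 lay above the olfactory 95th percentile and 0 passed (limma, 1 at unadjusted p under 0.05). Cd207, the defining lectin of Langerhans cells, was at 4.02 ± 0.058 and 3.93 ± 0.035 (SD, n = 2 each). The mean level of all 9 markers was 4.21 and 4.17 on the wild-type arrays and 4.21 and 4.14 on the Glut1-deficient arrays. Cd209a read 8.14 on average in both genotypes, and Ccr7 5.01 ± 0.15 and 4.54 ± 0.43. Ptprc, the pan-leukocyte marker CD45, was at 2.84 ± 0.092 and 3.15 ± 0.21, below the olfactory 95th percentile. Among the 3 pan-leukocyte markers Coro1a had a difference of -0.47 (limma adjusted p = 0.0739) and Laptm5 one of 0.05. Macrophage markers had 0 of 9 past the test (limma, 2 at unadjusted p under 0.05), with Cd68 at 8.19 ± 0.045 and 8.23 ± 0.016, C1qa at a difference of 0.04 and Csf1r at -0.29. T cell and B cell markers had 0 of 5 and 0 of 4 past the test (limma, 1 and 0 at unadjusted p under 0.05). Their brightest members Zap70 and Pax5 were at 4.53 and 4.11 on the wild-type arrays.

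In interferon signalling, which normally sets the level of the class I pathway, 1 transcription factor passed the test. Of 17 receptor and signalling genes, 1 fell, 0 rose and 16 did not pass, with a median of -0.08. The share past the test was 5.88%, against 2.84% of all genes. Of the 17, 9 lay below both wild-type arrays (52.9%, against 27.7% of all genes) and 4 above them (23.5%, against 25.5%). At an unadjusted p under 0.05, 5 were lower in limma (29.4%, against 11.2%) and 1 was higher. Irf1, the factor that drives Tap1, Psmb9 and class I promoters downstream of interferon, read 6.71 and 6.58 on the wild-type arrays and 5.35 and 5.79 on the Glut1-deficient arrays. It fell by 1.08 on the log2 scale (SE 0.167; limma adjusted p = 0.0498), a value just under the threshold that was 0.0814 to 0.296 with any 1 array left out. Irf9, which joins Stat2 in the type I interferon complex, had a difference of -0.61 (limma adjusted p = 0.0575) and Irf7 one of -0.59 (limma adjusted p = 0.0875). Both were lower on each Glut1-deficient array. The receptor genes for type I interferon and interferon gamma did not pass (limma, 1 of 4 at unadjusted p under 0.05), with Ifngr1 at -0.27, Ifngr2 at -0.04, Ifnar1 at 0.06 and Ifnar2 at -0.08.

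General chaperones and promoter factors did not pass. Of 7 lectin chaperone and redox genes, 0 passed (limma, 1 at unadjusted p under 0.05), and 4 lay below both wild-type arrays (57.1%). Calreticulin (Calr) had a difference of -0.00, calnexin (Canx) one of -0.07 and the tapasin partner Pdia3 one of -0.17. Hspa5, an endoplasmic reticulum chaperone, had one of 0.77 (limma adjusted p = 0.0515), and the glycoprotein folding sensor Uggt1 one of -0.21. Among 8 MHC promoter factors 0 passed (limma, 0 at unadjusted p under 0.05), with the CCAAT-binding subunits Nfya at -0.23 and Nfyc at -0.26. Of the 8 factors, 6 had negative differences and 5 lay below both wild-type arrays (62.5%, against 27.7% of all genes). Of 6 endosomal genes that serve class II, 0 passed (limma, 2 at unadjusted p under 0.05), with the protease Ctsd at -0.27 and the thiol reductase Ifi30 at 0.28.

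Surface ligands that lymphocytes read beside MHC went both ways. Of 7 costimulation and checkpoint genes, 1 rose, 0 fell and 6 did not pass (14.3% past the test, against 2.84% of all genes). Cd274, which encodes the inhibitory ligand PD-L1 and is itself interferon-inducible, read 5.65 and 5.63 on the wild-type arrays and 6.16 and 6.22 on the Glut1-deficient arrays. It rose by 0.55 on the log2 scale (SE 0.085; limma adjusted p = 0.0487). Its direction was opposite to that of Tap2 and Psmb8, and what lies behind this contrast was not tested. Icosl had a difference of 0.54 (limma adjusted p = 0.0572). In the other direction Cd80 had one of -0.84 (limma adjusted p = 0.0575) and Icam1 one of -0.62 (limma adjusted p = 0.0758), both below both wild-type arrays. Of 3 tested ligands of the activating receptor NKG2D, 1 fell, 0 rose and 2 did not pass (33.3% past the test, against 2.84% of all genes). Ulbp1 read 7.92 and 8.07 on the wild-type arrays and 6.43 and 6.51 on the Glut1-deficient arrays. It fell by 1.52 on the log2 scale (SE 0.101; limma adjusted p = 0.0136), with groups far apart relative to their spread. H60c, a skin ligand of the same receptor, was at 9.75 ± 0.048 and 9.24 ± 0.33 (SD, n = 2 each) and did not pass (limma adjusted p = 0.176). These 3 calls too were lost without any 1 array.

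The remaining H2- symbols were assigned to neither pathway. H2-Ke6, an enzyme gene named for its place in the complex, read 6.32 and 6.08 on the wild-type arrays and 6.69 and 6.58 on the Glut1-deficient arrays, a difference of 0.43 (limma adjusted p = 0.127). H2-K2, annotated as a transcribed pseudogene, read 6.03 and 6.11 against 6.60 and 6.30, a difference of 0.38 (limma adjusted p = 0.185). It was kept out of the class I counts because the list of classical chains fixed for this set does not name it. Other pseudogenes, such as H2-Bl and H2-Ea, were counted in their pathways. H2-Pb, a class II pseudogene, was at background level.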

How the data were processed

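RNA of 4 keratinocyte samples was hybridised to MoGene 2.0 whole-transcript arrays. The authors deposited log2 intensities per transcript cluster. The submitters' processing notes name RMA and Affymetrix Expression Console. Their versions and the genome build: not given in the sources used here. Of 41345 rows, 23521 carried 1 gene symbol, and the row with the highest mean stood for each of the 1082 genes with several, which left 22180 genes. The genotype comparison used R 4.3.3 and limma 3.58.1, by lmFit followed by eBayes without intensity trend and with 2 residual degrees of freedom, two-sided, with p-values adjusted by Benjamini-Hochberg across the 22180 genes; "rose" and "fell" mean an adjusted p under 0.05. Precision is limited by having 4 arrays, and an exact permutation test of 2 arrays against 2 cannot go below 0.333. Replicates are biological by their titles, but each is a pool of 2 plates, so a p-value reflects variation among pools. Members and lists were chosen with earlier results of these data known. Every member outside class Ib was named; of class Ib, those past the test and the 6 brightest; of each pathway list, those past the test and the 2 with the smallest p (Psma1 and Psma2 of the constitutive proteasome had differences of -0.17 and -0.29); of each cell type list, up to 3 of the brightest. Endothelial markers Kdr (2.38), Pecam1 (-0.35) and Cdh5 (-0.10), fibroblast markers Pdgfra (2.15), Dcn (2.01) and Col1a1 (0.99), melanocyte markers Dct (1.77), Tyrp1 (1.31) and Pmel (1.69), keratinocyte markers Perp (0.30) and Dsp (0.01), and B cell markers Cd79a (0.14) and Cd79b (0.01) and T cell markers Cd3d (-0.00) and Cd3e (-0.02) are given here as log2 differences. The remaining genes named were chosen after their values were seen. On simulated arrays with the means of 22180 genes, sets of 50 genes were given known log2 changes: with a change of 0.5 the fit called 0 of them, with 1 it called 18, with 2 it called 38 and with 3 it called 44. In this simulation the variances were shuffled among genes and only these sets were changed. Its counts therefore do not give the sensitivity of the fit on the real arrays. Motifs were searched in Python 3.11.15, and figures were drawn with matplotlib 3.10.9.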

Additional observations from a re-analysis of the deposited data

How the results depend on the processing

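The fit was repeated with a trend of variance on intensity (plain and robust), 2 other normalizations, a filter on dim genes, 2 other treatments of rows, leaving out each array and the replicate number as a block. Of the 6 members that passed, 0 remained in limma with all rows tested separately, and 0 remained without any 1 array (0 to 0 over the 4 fits). With the replicate block 0 members passed as well (limma, 15 at unadjusted p under 0.05). Same-numbered arrays shared only a number: their deviations correlated at -0.025 over all genes and at 0.22 over the 51 members. Leaving out an array or adding the block leaves fewer residual degrees of freedom by construction; the cause of the loss with all rows was not tested. With an intensity trend 8 of 51 members passed (12% of all genes did) and with robust estimation 9 of 51 (12.3%). After the dim filter 7 of 34 passed (12.7% of the genes kept) and with the mean of a gene's rows 5 of 51 (2.87%). In the main fit 2.84% of all genes passed, so the trend fits and the dim filter raised the share over all genes as well. B2m passed, as a rise, under both trend fits, Erap1 under the robust one, and Tap1 under the trend fits and the dim filter; Tapbp was lost with the mean of its rows. The class I median was -0.24 under the dim filter, which leaves 22 of 33 genes, and between -0.076 and 0.00 without any 1 array. The class II median was between -0.18 and 0.040 without any 1 array and so has no settled sign. Median centring turned the class I median to 0.002. Of the 51 members, 27 kept the sign of their difference in every one of the 12 alternatives in which they were fitted. The 24 that did not include no member that passed. For those that passed, leaving out an array could not change the sign, because the genotypes did not overlap. Over all genes 630 passed, with 1344 rises and 1327 falls under the intensity trend, 1368 and 1361 under the robust one, and 970 and 795 of 13903 after the dim filter. The replicate block gave 32 rises and 5 falls, and 0 genes passed in limma with all rows tested separately or without any 1 array.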
